A study of Mus musculus with 10 samples.

Results

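Ddit4, a stress-induced inhibitor of the kinase mTOR, was examined together with 9 other genes that restrain mTOR signalling, in the medial habenula of mice in nicotine withdrawal. The 10 genes were Ddit4, Ddit4l, Sesn1, Sesn2, Sesn3, Deptor, Tsc1, Tsc2, Akt1s1 and Eif4ebp1, found by symbol among the 56691 Ensembl genes of the deposited table. Ddit4 was chosen because its read counts differed between withdrawal and control mice, and the other 9 were chosen as its functional relatives with the results of that comparison known. The values of the 10 genes in that comparison are therefore a description and carry no independent evidence. The withdrawal group held 6 wild-type mice given 4 mg/kg nicotine ditartrate into the peritoneum on 14 days, 2 injections a day, with saline in its place from day 15. The control group held 4 wild-type mice given saline by the same route for 17 days. Tissue was taken from both groups on day 17. No strain, age or sex is given in the sources used here. The series record speaks of medial habenula tissue, while the sample labels speak of cholinergic neurons isolated from it by flow cytometry.

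mTOR complex 1 (mTORC1) is a protein kinase complex that promotes protein synthesis and cell growth when growth factors, amino acids and energy are plentiful. The TSC1 and TSC2 proteins hold it back by switching off the small GTPase Rheb, and the DDIT4 protein (also called REDD1) acts through them. DDIT4 is made in response to glucocorticoids, hypoxia, energy shortage and endoplasmic reticulum stress, and it turns over quickly. The sestrins restrain mTORC1 through the amino acid sensing machinery at the lysosome, and SESN1 and SESN2 are leucine sensors. DEPTOR and PRAS40 (the product of Akt1s1) bind and inhibit mTOR itself, and 4E-BP1 (the product of Eif4ebp1) is a repressor of translation that mTORC1 switches off. Much of this regulation is by phosphorylation and protein turnover, which RNA counts do not measure.

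Total counts ran from 16667113 to 20276566 in withdrawal libraries and from 15023448 to 22026333 in control libraries. The summed level of 11 medial habenula neuron markers, Chat, Chrnb4 and Pou4f1 among them, was 1723 to 2571 CPM in 5 withdrawal libraries and 1862 to 2527 CPM in 3 control libraries. It was 67.3 CPM in withdrawal 2 and 55.2 CPM in control 2, so these libraries went against their tissue label. CPM is the read count scaled to a common library total, here with TMM factors. Transcripts of other cells were present in all 10 libraries, whether or not a sort was done, and the summed level of 7 oligodendrocyte markers was 5840 to 14510 CPM in withdrawal and 8573 to 12221 CPM in control. Values are given for all 10 libraries and again for the 8 libraries (5 withdrawal and 3 control) without withdrawal 2 and control 2. A gene counted as changed when its adjusted p was under 0.05 in the quasi-likelihood test of edgeR over 14928 genes.

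RefSeq promoters (assembly GRCm38.p6, another build than the mm39 of the counts) were on hand for 8 of the 10 genes. The 250 bases before the start of Ddit4 and of Sesn3 are printed 5′ to 3′ on the strand of the gene, because these were the members whose withdrawal and control levels did not overlap over the 10 libraries, Ddit4 being lower and Sesn3 higher in withdrawal. Capitals mark ACGTG and GCGTG, the 2 forms of the core of the hypoxia response element; the search for GCGTG was added after the sequences had been seen.
Ddit4, chr10:59951771-59952020, minus strand: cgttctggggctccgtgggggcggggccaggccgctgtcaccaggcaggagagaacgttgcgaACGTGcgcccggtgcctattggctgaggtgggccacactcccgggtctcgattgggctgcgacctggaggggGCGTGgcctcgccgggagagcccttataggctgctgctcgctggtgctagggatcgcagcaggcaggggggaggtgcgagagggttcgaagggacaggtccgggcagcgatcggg
Sesn3, chr9:14276051-14276300, plus strand: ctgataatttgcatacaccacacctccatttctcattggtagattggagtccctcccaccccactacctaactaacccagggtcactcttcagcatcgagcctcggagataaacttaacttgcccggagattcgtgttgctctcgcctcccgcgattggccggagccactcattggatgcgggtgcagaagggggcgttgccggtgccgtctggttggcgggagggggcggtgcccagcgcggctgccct
The window of Ddit4 held 1 ACGTG, beginning 187 bases before the start, and 1 GCGTG, beginning 115 bases before it. On either strand, ACGTG was found in 16.6% and GCGTG in 28.2% of the 32851 RefSeq promoter windows of this length. The window of Ddit4 held none of AGAACA (the hexamer of a glucocorticoid response element, in 16.1% of windows), TGTTTAC (FoxO factors, 3.17%), CACGTG (the E-box, which contains ACGTG, 6.02%), TGATGCA (core of the ATF4 composite element, 2.68%) or TATAAA (the TATA box, 12.4%). GCGTG was also found for Ddit4l, Sesn1 (1 of its 2 windows), Tsc1, Tsc2 and Akt1s1, while the windows of Sesn2 and Sesn3 held none of the 7 motifs. The window of Ddit4 was 70.0% G and C and that of Sesn3 59.6%, against a median of 52.4% over all windows. A match is a description of the letters and not a bound site, and no match says only that the letters are not in these 250 bases.

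Ddit4 (ENSMUSG00000020108) was lower in withdrawal, at about 0.489 of its control level. Its level in the 6 withdrawal libraries had a lowest value of 20.8, a median of 22.5 and a highest value of 32.1 CPM, against 40.6, 53.2, 45.1 and 55.7 CPM in controls 1 to 4. Every withdrawal library lay below every control library, and withdrawal 2 was the highest of its group. The means were 23.8 ± 4.20 CPM in withdrawal and 48.7 ± 7.03 CPM in control (SD, n = 6 and 4), a log2 fold change of -1.03 (SE 0.138, edgeR adjusted p = 0.0270). The library counts behind these values ran from 391 to 1206 reads. In the same fit 0.208% of all tested genes changed, and the groups did not overlap in 3.31% of them; since Ddit4 was chosen by this comparison, nothing is read from its place among them. In the 8 libraries the log2 fold change was -1.10 (SE 0.1001, edgeR adjusted p = 5.24e-04). In bulk RNA, fewer cells of a type and less of the transcript per cell cannot be told apart.

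The direction of Ddit4 was the same whichever library was left out, with log2 fold changes between -1.14 and -0.96. The call depended on the libraries: it held in 3 of the 10 fits that left out 1 library (without withdrawal 2, control 1 or control 2, where 6.1%, 0.067% and 0.228% of all genes passed), with edgeR adjusted p from 0.00210 to 0.115 over the 10. It was lost without control 3 (edgeR adjusted p = 0.1001), control 4 (0.104) or any of withdrawal 1, 3, 4, 5 and 6 (0.0724 to 0.115).

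**Figure D1:**
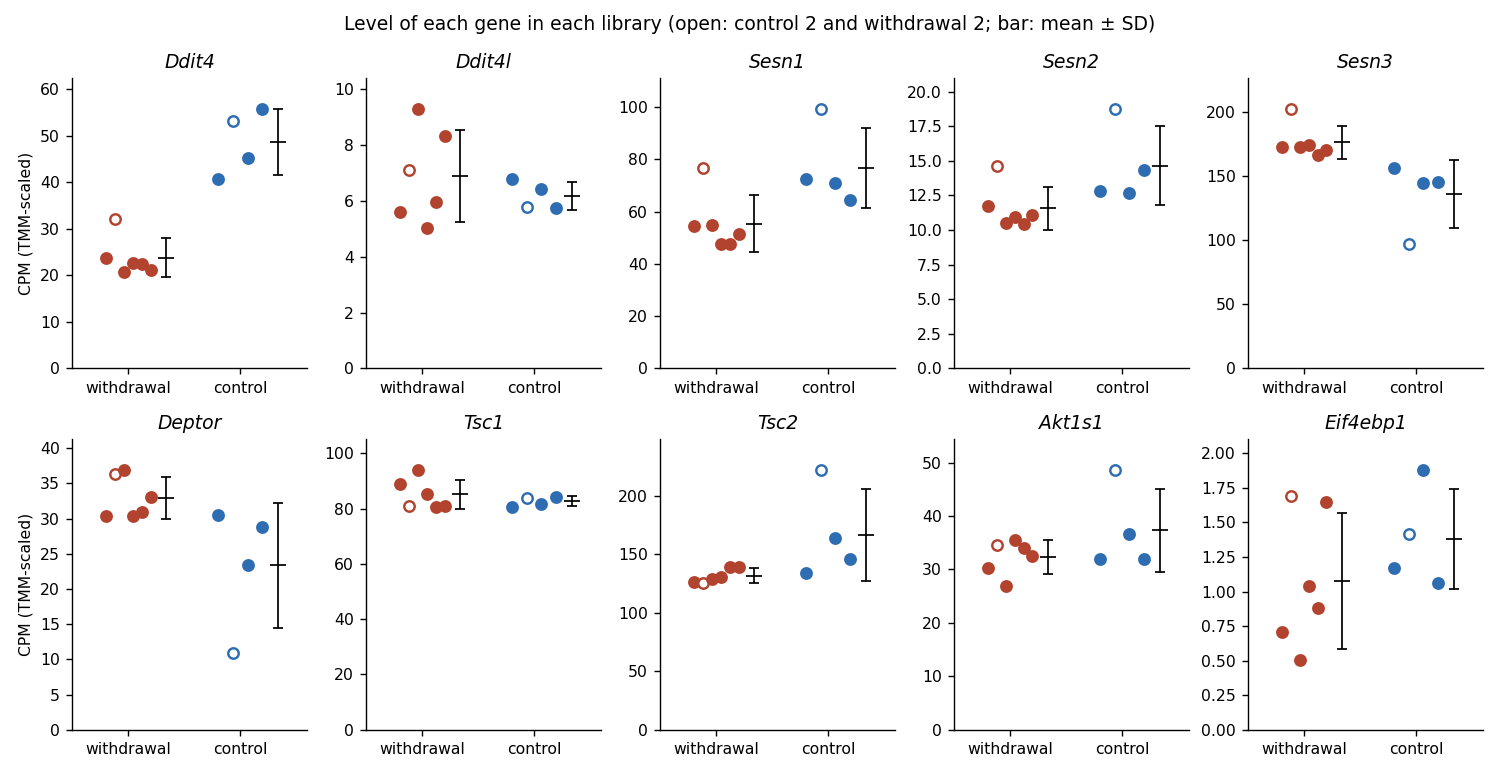
Level of the 10 genes in each library, in CPM after TMM scaling on axes that start at 0. Filled points are libraries, open points are withdrawal 2 and control 2, and the bar is the mean with its SD (n = 6 withdrawal, 4 control). The 6 withdrawal points of Ddit4 sit between 20.8 and 32.1 CPM, below all 4 control points, and the open control point is the highest control for Tsc2 and the lowest for Deptor and Sesn3.

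Ddit4l (ENSMUSG00000046818), the paralogue of Ddit4 whose product (REDD2) also inhibits mTORC1, had overlapping groups. Its level was 5.03 to 9.28 CPM in withdrawal, with a median of 6.53, against 6.77, 5.78, 6.42 and 5.73 CPM in controls 1 to 4. The control range lay inside the withdrawal range. The log2 fold change was 0.16 (SE 0.183, edgeR adjusted p = 0.685) over 10 libraries and 0.11 (SE 0.212) over 8.

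The 3 sestrins did not go the same way: Sesn1 and Sesn2 were lower and Sesn3 was higher in withdrawal. Sesn1 (ENSMUSG00000038332) had a lowest value of 47.5, a median of 52.95 and a highest value of 76.6 CPM in withdrawal, against 72.5, 99.2, 70.8 and 64.5 CPM in controls 1 to 4. The 5 withdrawal libraries other than withdrawal 2 lay below every control, and withdrawal 2 lay inside the control range. The log2 fold change of Sesn1 was -0.47 (SE 0.159, edgeR adjusted p = 0.264) over 10 libraries and -0.44 (SE 0.0693, edgeR adjusted p = 0.00579) over the 8. Sesn2 (ENSMUSG00000028893), the sestrin best known as a target of the stress factor ATF4, had 10.4 to 14.6 CPM in withdrawal, with a median of 11.0, against 12.8, 18.7, 12.7 and 14.4 CPM in controls 1 to 4. Here too withdrawal 2 was the one withdrawal library inside the control range. Sesn2 had a log2 fold change of -0.34 (SE 0.143, edgeR adjusted p = 0.303) over 10 libraries and -0.29 (SE 0.0934, edgeR adjusted p = 0.0682) over 8.

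Sesn3 (ENSMUSG00000032009), a sestrin induced by FoxO factors, was higher in withdrawal. It had a lowest value of 166, a median of 173 and a highest value of 203 CPM in withdrawal, against 157, 97.5, 145 and 145 CPM in controls 1 to 4. All 6 withdrawal libraries lay above all 4 controls, and control 2 was far below the other controls. The log2 fold change was 0.38 (SE 0.125, edgeR adjusted p = 0.264) over 10 libraries and 0.24 (SE 0.0710) without control 2. In the 8 libraries it was 0.20 (SE 0.0471, edgeR adjusted p = 0.0258), about 1.15-fold.

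The subunits that bind mTOR and the TSC proteins had smaller or less even differences. Deptor (ENSMUSG00000022419) had 30.3 to 36.9 CPM in withdrawal, with a median of 32.0, against 30.4, 10.9, 23.4 and 28.8 CPM in controls 1 to 4. Control 1 lay inside the withdrawal range, and the low control mean of 23.4 ± 8.85 CPM (SD, n = 4) came with the single value of control 2. The log2 fold change of Deptor was 0.50 (SE 0.239) over 10 libraries and 0.25 (SE 0.104) without control 2. Akt1s1 (ENSMUSG00000011096) had 26.9 to 35.5 CPM in withdrawal, with a median of 33.2, against 32.0, 48.5, 36.6 and 32.0 CPM in controls 1 to 4. Its groups overlapped, and its log2 fold change of -0.21 (SE 0.131) was -0.07 (SE 0.0986) without control 2.

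Tsc2 and Tsc1, which encode the partner proteins of the Rheb-inactivating complex, differed in their pattern. Tsc2 (ENSMUSG00000002496) had 125.7 to 139.5 CPM in withdrawal, with a median of 130.0, against 134, 222, 164 and 146 CPM in controls 1 to 4. Control 1 lay inside the withdrawal range and control 2 far above every other library. The log2 fold change of Tsc2 was -0.34 (SE 0.126) over 10 libraries, -0.18 (SE 0.0740) without control 2 and -0.16 (SE 0.0709) over 8. Tsc1 (ENSMUSG00000026812) was the steadiest of the 10 genes, at 80.7 to 93.9 CPM in withdrawal and 80.7 to 84.3 CPM in control. Its log2 fold change was 0.04 (SE 0.0605) over 10 libraries and 0.06 (SE 0.0607) over 8.

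Eif4ebp1 (ENSMUSG00000031490) was the least abundant of the 10 and was left out of the test reported here, because its mean of 0.547 FPKM was under the minimum of 1 (FPKM is the count scaled to gene length and library total). It had 0.502 to 1.69 CPM in withdrawal, with a median of 0.959, against 1.17, 1.42, 1.88 and 1.06 CPM in controls 1 to 4, from 10 to 34 reads per library. The groups overlapped. With the count-based filter of edgeR in place of the FPKM minimum it was tested, with a log2 fold change of -0.36 (SE 0.354, edgeR adjusted p = 0.633).

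**Figure D2:**
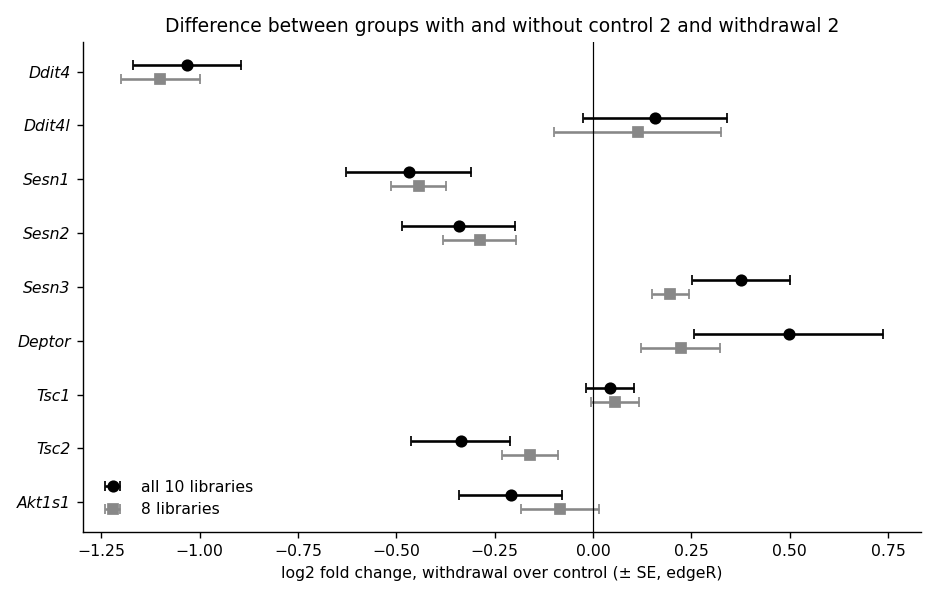
Log2 fold change of withdrawal over control with its SE for the 9 tested genes, from edgeR on all 10 libraries (black circles) and on the 8 libraries without withdrawal 2 and control 2 (grey squares). Ddit4 and Sesn1 keep nearly the same value in both, while those of Sesn3, Deptor, Tsc2 and Akt1s1 are closer to 0 in the 8 libraries.

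In all, 5 of the 9 tested members were lower and 4 higher, with a median log2 fold change of -0.21, against 0.0034 over all tested genes. Of the 8 other than Ddit4, 0 passed in edgeR over 10 libraries and 0 in DESeq2, which called 2.55% of all genes, while 4 of the 8 had an unadjusted p under 0.05, as did 15.4% of all genes. Over the 8 libraries Sesn1 and Sesn3 passed along with Ddit4, where 14.0% of all genes passed. The median of the 9 was then -0.08, against 0.0077 over all genes. The groups did not overlap for Ddit4, Sesn1, Sesn2 and Sesn3 in these 8 libraries, which held for 23.3% of all tested genes.

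The levels of several members correlated with summed cell type markers across the 10 libraries. The summed level of 8 hippocampal and cortical neuron markers, Neurod6 and Wfs1 among them, was 365 to 666 CPM in withdrawal and 540 to 2734 CPM in control, with the top value in control 2. All 7 tested markers had lower means in withdrawal. Of the 7, 0 passed in edgeR, 6 had an unadjusted p under 0.05 and 2 passed in DESeq2, against 0.208%, 15.4% and 2.55% of all genes. Across the 10 libraries the Pearson correlation of this sum with the gene's level, both on a log2 scale, was 0.92 for Tsc2, 0.86 for Sesn1, 0.73 for Ddit4, -0.84 for Sesn3 and -0.91 for Deptor (n = 10). Control 2 weighs heavily in each of these, and all values of a library share its dissection and depth. Group means were not subtracted, so the group difference is part of these values too. Of the 11 marker lists, Sesn1 went most closely with the 8 astrocyte markers (0.93), and Ddit4 with the 5 oligodendrocyte precursor markers (0.83). All 5 of these precursor markers had lower means in withdrawal. Gpr17, a receptor of cells on the way to oligodendrocytes, was the one gene of the 11 lists that passed in edgeR, where 0.208% of all genes passed. Gpr17 had 50.6 to 69.1 CPM in withdrawal and 83.3 to 100.7 CPM in control.

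Markers of the thalamic and blood lists had higher means in withdrawal. Their counts below stand beside 0.208% of all genes that passed in edgeR, 15.4% with an unadjusted p under 0.05 and 2.55% that passed in DESeq2. All 7 thalamic neuron markers had higher means there (0 passed in edgeR, 0 had an unadjusted p under 0.05 and 0 passed in DESeq2), and their sum was 437 to 1168 CPM in withdrawal and 144 to 689 CPM in control. Again without subtraction of group means, that sum had a correlation of -0.90 with Sesn1, -0.84 with Tsc2, -0.69 with Ddit4, 0.74 with Sesn3 and 0.82 with Deptor. Its largest part in the 8 libraries was Slc17a6, at 449 to 608 CPM in withdrawal and 216 to 390 CPM in control. Slc17a6 was only 85.6 CPM in withdrawal 2 and 5.29 CPM in control 2, the libraries with few habenula transcripts. The thalamic sum thus fell along with habenula transcripts, and the part of thalamic neurons in it was not tested. All 5 blood markers had higher means in withdrawal (0 passed in edgeR, 5 had an unadjusted p under 0.05 and 1 passed in DESeq2), and their sum was 49.6 to 637 CPM in withdrawal, with the top value in withdrawal 2, and 30.5 to 75.9 CPM in control. Likewise without that subtraction, the blood sum had a correlation of -0.35 with Ddit4.

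The marker sums also differed between the groups in the 8 libraries that kept habenula transcripts. Hippocampal and cortical markers summed to 365 to 454 CPM in 5 withdrawal libraries and 540 to 1043 CPM in 3 controls. Astrocyte markers summed to 2852 to 3336 CPM in withdrawal and 3557 to 4045 CPM in control, oligodendrocyte markers to 5840 to 9973 and 11001 to 12221 CPM, and the 5 oligodendrocyte precursor markers to 230 to 278 and 327 to 336 CPM. In these 4 lists the ranges of the sums did not touch between the groups, and no listed marker was at 0 in any library. The part of this content in the differences of Ddit4, Sesn1, Sesn2 and Sesn3 was not tested.

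**Figure D3:**
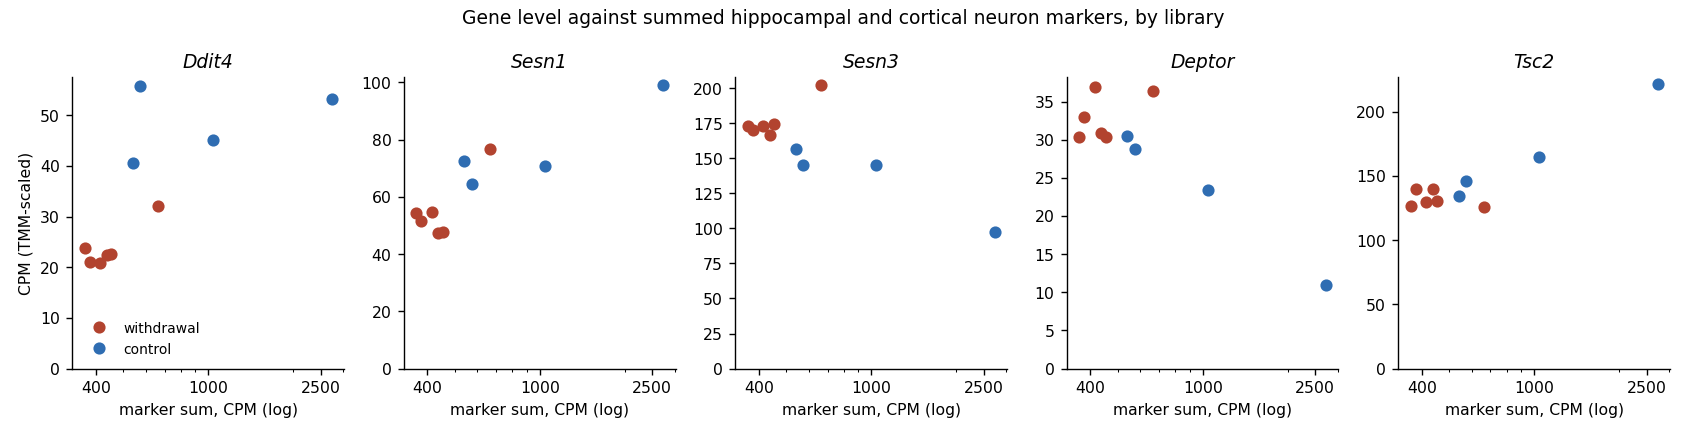
CPM of Ddit4, Sesn1, Sesn3, Deptor and Tsc2 in each library against the summed CPM of 8 hippocampal and cortical neuron markers (log axis). Control 2, at 2734 CPM of markers, lies at the end of each panel. Withdrawal 2, at 666 CPM, is the one withdrawal library with a marker sum inside the control range, and the 5 others, at 365 to 454 CPM, lie below every control.

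Per gene length, Ddit4 was the most abundant of the 10 transcripts in control and one of several at the same level in withdrawal. It had 13.8 ± 2.19 FPKM in withdrawal and 26.8 ± 4.00 FPKM in control (SD, n = 6 and 4), and in control it lay above Sesn1 (18.5 FPKM) in 4 of 4 libraries with no overlap. In withdrawal Sesn1 (14.2 FPKM), Tsc2 (14.0 FPKM) and Ddit4 had overlapping ranges and could not be put in an order. Sesn3 followed in withdrawal at 11.8 ± 0.705 FPKM, below Ddit4 in 6 of 6 libraries although the ranges overlapped, and Akt1s1 at 10.7 FPKM, while in control Akt1s1 (11.6 FPKM) lay above Sesn3 (8.78 FPKM) in 4 of 4. Tsc1 came next at 7.35 FPKM in withdrawal and 6.79 FPKM in control. Sesn2 (3.39 and 4.04 FPKM), Deptor (3.80 and 2.63 FPKM) and Ddit4l (2.41 and 2.06 FPKM, withdrawal and control) formed the low end above Eif4ebp1. Ddit4l was thus present at a small share of the Ddit4 level in both groups.

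**Figure D4:**
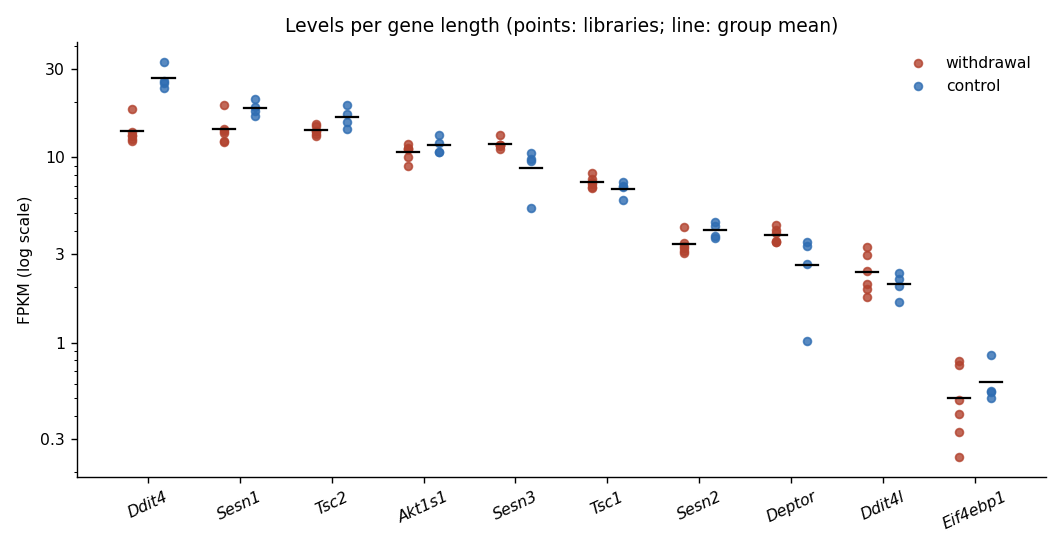
FPKM of the 10 genes in each library on a log axis, withdrawal (red) left of control (blue), with the group mean as a line, ordered by the control mean. Ddit4 stands above the other genes in control at 23.7 to 32.7 FPKM and lies among Sesn1 and Tsc2 in withdrawal at 12.2 to 18.1 FPKM.

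The rest of the mTOR pathway was described with 5 lists of 77 genes, all of them tested: subunits of the mTOR complexes, insulin and growth factor input, energy sensing by AMPK, amino acid sensing at the lysosome, and outputs of mTORC1. Of the 77, 0 passed in edgeR over 10 libraries (the background is the 0.208% above). An unadjusted p under 0.05 was found for 10 of them, against 15.4% of all genes. In DESeq2 2 of them passed, against 2.55% of all genes. Of the 77, 53 had lower and 24 higher means in withdrawal, with 15 of 18 mTORC1 outputs lower (median log2 fold change -0.09) and 12 of 15 insulin and growth factor genes lower (median -0.14). Over all 77 the median log2 fold change was -0.06, against 0.0034 over all tested genes, and single genes ran from -0.59 to 0.56. This lean was smaller in the 8 libraries, with 46 of the 77 lower and 31 higher (median -0.03, against 0.0077 over all genes). There 10 of 18 mTORC1 outputs (median -0.03) and 11 of 15 insulin and growth factor genes (median -0.05) were lower. Mtor, the kinase itself, had 132 ± 4.21 CPM in withdrawal and 133 ± 8.55 CPM in control (SD, n = 6 and 4), a log2 fold change of -0.02 (SE 0.0586). Rptor, the subunit that brings substrates to mTORC1, had a log2 fold change of -0.18 (SE 0.0885), Rictor, its counterpart in mTORC2, 0.02 (SE 0.0488), and Rheb, the GTPase that TSC2 switches off, 0.03 (SE 0.0880). Eif4ebp2, the predominant relative of Eif4ebp1 in brain, had 81.3 ± 5.69 CPM in withdrawal and 98.1 ± 11.7 CPM in control, a log2 fold change of -0.27 (SE 0.0882, edgeR adjusted p = 0.264). Rps6kb1, the S6 kinase that mTORC1 activates, had -0.03 (SE 0.0829), and Prkaa2, a catalytic subunit of AMPK, 0.12 (SE 0.0855).

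Over the 8 libraries 6 of the 77 passed, 4 lower and 2 higher, where 14.0% of all genes passed. Those that fell were Irs2, an adaptor of the insulin receptor (log2 fold change -0.20, edgeR adjusted p = 0.0249), Pik3r1, the regulatory subunit of PI3-kinase (-0.20, edgeR adjusted p = 0.0335), Castor1, an arginine sensor (-0.83, edgeR adjusted p = 0.0212), and Fnip2, a partner of folliculin (-0.41, edgeR adjusted p = 0.0118). Rraga, a Rag GTPase that recruits mTORC1 to the lysosome, rose by 0.28 (edgeR adjusted p = 0.0147). Grb10, an adaptor that mTORC1 phosphorylates, rose by 0.36 (edgeR adjusted p = 0.0156). Irs2 and Fnip2 were also the 2 that DESeq2 called over all 10 libraries. Castor1 rested on a mean of 2.39 CPM in withdrawal and 4.21 CPM in control in these 8 libraries.

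**Figure D5:**
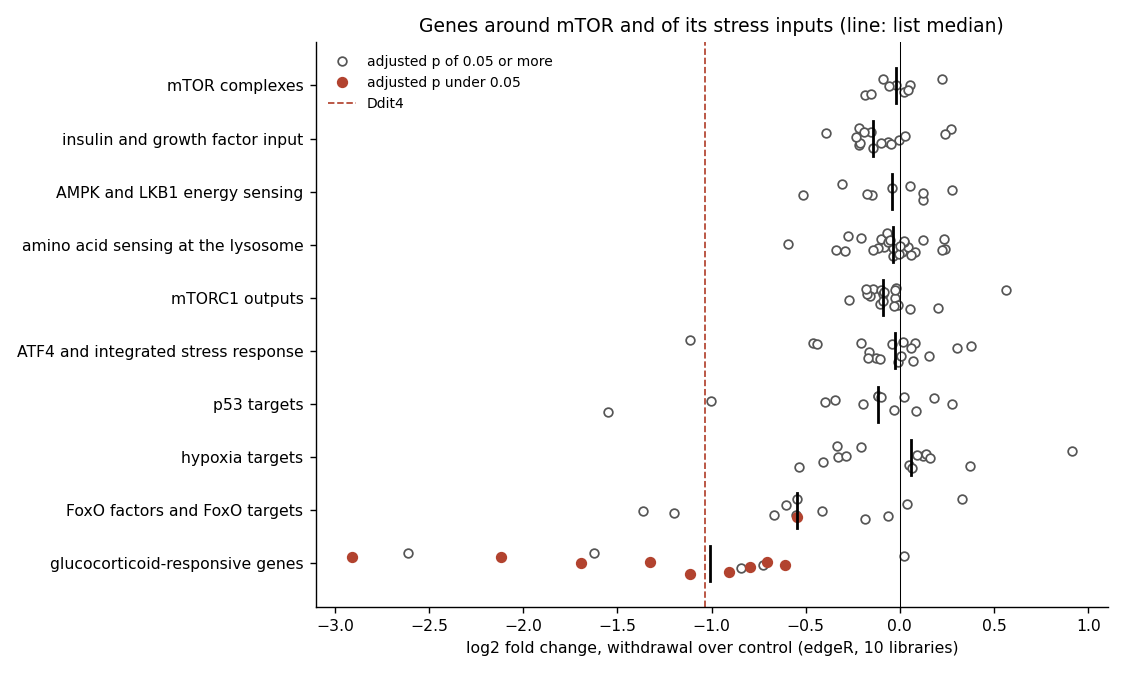
Log2 fold change of withdrawal over control (edgeR, 10 libraries) for each tested gene of 10 lists, filled where the adjusted p was under 0.05, with the list median as a black line and Ddit4 as a dashed line at -1.03. The medians of the 5 mTOR pathway lists lie between -0.14 and -0.02, and filled points are in the glucocorticoid-responsive list (9 of 14) and the FoxO list (Klf15).

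The pathways known to induce Ddit4 or the sestrins were described with 4 further lists of 57 tested genes, of which 1 passed over 10 libraries. Over all tested genes, 0.208% passed in edgeR, 15.4% had an unadjusted p under 0.05 and 2.55% passed in DESeq2. Of 18 tested ATF4 and integrated stress response genes 0 passed in edgeR, 2 had an unadjusted p under 0.05 and 2 passed in DESeq2, with a median log2 fold change of -0.03. Atf4, the transcription factor of that response, had 106 ± 11.8 CPM in withdrawal and 109 ± 18.3 CPM in control (log2 fold change -0.04, SE 0.118). Trib3, an ATF4 target, averaged 0.276 FPKM over the 10 libraries and was not tested. Of 14 hypoxia targets 0 passed in edgeR, 2 had an unadjusted p under 0.05 and 1 passed in DESeq2, with a median of 0.058. Vegfa, which encodes a growth factor for blood vessels, had 98.8 ± 8.66 CPM in withdrawal and 90.8 ± 4.22 CPM in control (log2 fold change 0.12, SE 0.0764). Of 13 p53 targets 0 passed in edgeR, 3 had an unadjusted p under 0.05 and 2, Cdkn1a among them, passed in DESeq2, with a median of -0.11. Cdkn1a, an inhibitor of the cell cycle induced by p53 and also by glucocorticoids, had 10.6 ± 2.38 CPM in withdrawal and 21.2 ± 5.99 CPM in control (log2 fold change -1.004, SE 0.212, edgeR adjusted p = 0.145). Its groups did not overlap, which held for 3.31% of all tested genes.

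Among 12 tested FoxO factors and targets, 10 had lower means, the median was -0.55 and Klf15 fell. Of the 12, 6 had an unadjusted p under 0.05, against 15.4% of all genes, and 4 (Foxo1, Foxo3, Klf15 and Bcl6) passed in DESeq2, against 2.55% of all genes. Klf15, a glucocorticoid-induced regulator of amino acid breakdown, had 24.1 ± 2.29 CPM in withdrawal and 35.2 ± 2.28 CPM in control (log2 fold change -0.54, SE 0.0875, edgeR adjusted p = 0.0486). Foxo1, a transcription factor that AKT holds in the cytoplasm, had 33.8 ± 7.62 and 49.5 ± 2.78 CPM in withdrawal and control (log2 fold change -0.55, SE 0.151, edgeR adjusted p = 0.238). Pik3ip1, an inhibitor of PI3-kinase, had a log2 fold change of 0.04 (SE 0.101). Over the 8 libraries 22 of the 57 passed, 19 lower and 3 higher, against 7.63% lower and 6.36% higher among all genes. By list, lower and higher, these were 4 and 1 for ATF4, 5 and 0 for p53, 3 and 2 for hypoxia and 7 and 0 for FoxO genes, with Cdkn1a (-1.17, edgeR adjusted p = 0.00873) and Foxo1 (-0.67, edgeR adjusted p = 0.00770) among those that fell. The marker sums that differed between the groups in these 8 libraries, given above, stand beside these counts too, and their part was not tested.

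Of 14 glucocorticoid-responsive genes, a list drawn up with their fall in these samples known, 9 fell over 10 libraries, where 0.208% of all genes passed in edgeR. The log2 fold changes of the 14 ran from -2.91 to 0.02, with a median of -1.01. Of the 14, 12 passed in DESeq2, Sgk1 among them, and 13 fell in the 8 libraries. The list was chosen for its fall, so these counts are a description. Fkbp5, a co-chaperone that limits the glucocorticoid receptor, had 23.9 ± 8.70 CPM in withdrawal and 77.3 ± 26.2 CPM in control (log2 fold change -1.69, edgeR adjusted p = 0.0447). Sgk1, a kinase that mTORC2 activates, had 74.6 ± 30.5 CPM in withdrawal and 230.0 ± 71.5 CPM in control (log2 fold change -1.62, edgeR adjusted p = 0.0884).

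The genes most like Ddit4 were sought among the tested genes, with predicted, clone-named and unnamed genes and named pseudogenes left out. Of those kept, the gene whose level followed Ddit4 most closely across the 10 libraries was Fkbp5, with a Pearson correlation of 0.96 on log2 CPM. It came ahead of Mxd4 (0.96), Ankrd13a (0.96), Wbp1l (0.96) and Fam107a (0.95). All 5 had lower means in withdrawal, so the group difference is part of these values. After the mean of each group was subtracted, the genes most like Ddit4 were Naxd (0.92), Tmem158 (0.91), Yod1 (0.91), Daam2 (0.91), Sidt2 (0.91), Slc25a45 (0.91), Uqcr11 (0.90) and Ddx50 (0.89), and Fkbp5 had 0.78. With withdrawal 2 and control 2 left out as well, the subtracted value of Fkbp5 was 0.22 and that of Daam2 0.87 (n = 8). Of the other members, Sesn2 followed Ddit4 most closely, at 0.83 over 10 libraries, 0.81 after subtraction and 0.78 over 8 libraries after subtraction. Sesn1 had 0.82, 0.62 and -0.54 in the same order. Over 10 libraries the closest pair among the other members was Deptor and Tsc2, with -0.96. Over 8 libraries after subtraction that pair had -0.64, and Sesn3 and Tsc2 (-0.82) and Deptor and Akt1s1 (-0.79) were closer. These are descriptions of few libraries that share dissection and depth. Genes outside the 10 were named as the extremes of the 14928 tested genes, less those left out.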

How the data were processed

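RNA-seq reads from 10 mice were processed by the authors with cutadapt 1.9.1, HISAT2 2.2.1 and HTSeq 0.6.1 on mouse build mm39, per the submitters' processing notes. Per the file headers, the deposited columns are raw read counts per Ensembl gene and FPKM values, which divide counts by gene length and sequencing depth. The annotation release and strand setting are not given in the sources used here, so overlapping and antisense genes could not be told apart. Symbols came from GENCODE M21, which named 52073 of 56691 identifiers, and promoters from RefSeq GRCm38.p6. The test took genes whose FPKM averaged 1 or more (14928 genes, at least 99.0% of each library's counts) and used the 2-sided quasi-likelihood test of edgeR 4.0.16 (TMM, R 4.3.3), adjusted by Benjamini-Hochberg over all genes at 0.05, and the script was tested on simulated counts. Correlations used log2 CPM with a prior count of 2. Alternatives were DESeq2 1.42.0, limma 3.58.1 on log2(FPKM + 1), other scalings and filters, a replicate block and left-out libraries. The 10 genes, the gene lists and the 8-library subset were chosen with earlier results of these data known. So was the rule for named genes (the 10 genes, 16 pathway genes, list genes past the threshold, and the genes most like Ddit4). Of the 16, Fkbp5 and Sgk1 came from the glucocorticoid-responsive list, which was chosen for its fall. Without molecular identifiers, precision from counting covers counting error only.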

Additional observations from a re-analysis of the deposited data

Results flagged for a closer look

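In 26 genes (the 10 members and 16 pathway genes), the libraries of each group were searched for 1 that stood apart from the rest of its group. The measure was its gap to the next library as a share of the group's range, 0.688 to 0.898 in the cases found. Chance gives such a case in about 1 of 20 independent groups. These genes share the same 10 libraries, so that rate cannot be set against the count of cases. The search gave 7 cases among 52 groups, each of them withdrawal 2 or control 2, the libraries with few habenula transcripts. In withdrawal 2, Ddit4 reached 32.1 CPM (20.8 to 23.8 in the 5 others of its group). Sesn1 was 76.6 CPM there (47.5 to 54.7 in the others), Sesn2 14.6 CPM (10.4 to 11.8), Sesn3 203 CPM (166 to 175) and Fkbp5 41.6 CPM (19.1 to 21.8). In control 2, Rps6kb1 was 83.4 CPM, against 65.5 to 67.3 CPM in the other 3 controls, and Atf4 was 136 CPM, against 97.9 to 102.7 CPM.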

How the results depend on the processing

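Ddit4 was lower in withdrawal in all 19 alternatives run, with log2 fold changes from -1.14 to -0.91. Its call was lost with scaling by library totals only (log2 fold change -0.96, edgeR adjusted p = 0.0509). It was also lost on replicates 1 to 4 of each group, with the replicate block (-0.98, edgeR adjusted p = 0.217) and without it (-0.97, edgeR adjusted p = 0.276; this last fit was added after seeing the data). Leaving out 1 library gave values from -1.14 to -0.96. The number of changed genes was 31 in the fit reported, 6 with library totals only, 380 in DESeq2, 12 in limma on log2(FPKM + 1), 0 with the replicate block and 0 without it on the same 8 libraries, and 4 to 911 with 1 library left out. It was 2088 without withdrawal 2 and control 2. The number of other members called was 2 in those 8 libraries and 0 to 1 with 1 library left out (Sesn1, without withdrawal 2). The number of mTOR pathway genes called was 2 in DESeq2, 6 in the 8 libraries and 0 to 3 with 1 library left out (3 without withdrawal 2). No tested member changed direction in any of the 19 alternatives. Residuals of libraries with the same replicate number correlated at 0.029, 0.30, -0.13 and 0.28 for numbers 1 to 4, so the numbers were not taken as pairs. Low counts limit Eif4ebp1. The cause of these changes was not tested.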
